A study of Mus musculus with 12 samples.

Results

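The genes described here encode 9 proteins of the red cell surface, most of them carriers of human blood groups: Rhd, Rhag, Icam4, Cd47, Kel, Xk, Ermap, Gypc and Aqp1. They were measured by Affymetrix expression arrays in mouse erythroleukemia (MEL) cells, a leukemic erythroid line that makes hemoglobin and other red cell proteins when treated with dimethyl sulfoxide (DMSO). Every probe set annotated to exactly 1 of these symbols was taken, which gave 14 probe sets of 45101 on the array: 5 for Cd47, 2 for Xk and 1 for each of the other genes. The 2 groups were wild type MEL cells and MEL cells with knockdown of G9a, an enzyme that methylates lysine 9 of histone H3 and is the product of Ehmt2, with 3 arrays each. Cells of both groups were grown with 2% DMSO for 4 days per the labels' protocols, and the knockdown was induced with doxycycline at 5 µg/ml. The same protocol text stands with both groups, so whether wild type cells also received doxycycline is not given in the sources used here, nor is the knockdown construct or whether the line was 1 clone. Separate cultures are not named for the replicates, so each p-value reflects only how far these 6 arrays scatter, and that scatter may be technical.

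In the mature red cell these proteins sit in a few assemblies. The Rh proteins and the Rh-associated glycoprotein RhAG form the core of a complex that also holds ICAM-4 and CD47 and is tied to the membrane skeleton through ankyrin. The Kell protein, an endopeptidase, is disulfide-linked to XK, a membrane protein of a family with lipid scramblases. Glycophorin C binds the adaptor p55 at the junctions of the skeleton, aquaporin-1 conducts water, and ERMAP is a butyrophilin-like protein of the erythroid surface.

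Expression is given as the deposited GCRMA value, a background-corrected and normalized log2 signal, and differences are knockdown minus wild type in log2 units. Each difference is also given within its replicate pair (knockdown 1 minus wild type 1, and so on), and intervals come from a limma fit with the replicate number as a block. The block was set with the choice of genes, and same-numbered arrays of the groups deviated together. A call means a Benjamini-Hochberg adjusted p under 0.05 over all 17028 probe sets above log2 4 in at least 3 arrays. Of the 14 member probe sets, 12 passed that filter, each with all 6 arrays above it, and the other 2 (1 for Cd47 and 1 for Xk) lay near it or under it. As a check of the groups, Ehmt2 fell by 2.86 log2 units at one probe set and fell by 2.87 at the other (limma adjusted p = 0.0278 and 0.0316 with the block). MEL cells showed their erythroid label: 9 of the 10 erythroid markers with a probe set of their own were above the filter. Among them Gata1, Klf1 and Alas2 averaged 13.25, 12.49 and 13.20 in wild type arrays, whereas Hba-a2 and Slc4a1 averaged only 7.37 and 7.93. The marker under the filter was the globin gene Hba-a1. No 2 columns held identical values. An array of a cell population cannot tell fewer maturing cells from less RNA per cell.

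Ermap, Kel, Rhd and Icam4 read 1.43 to 1.67 times higher in the knockdown on average, and each was higher in all 3 replicate pairs. Rhag was also higher in all 3 pairs, by less. Gypc was lower in all 3 pairs. Cd47, Xk and Aqp1 showed no common direction across pairs. None of these differences was called: 0 of the 12 tested member probe sets passed with the block (limma, smallest adjusted p = 0.169), against 0.0117% of all tested probe sets, and 0 passed without it (0.00587% of all). The 2 probe sets called with the block, and the 1 called without it, read Ehmt2 itself, so these fits called no gene other than the knockdown target. Ehmt2 fell 7.28 and 7.31 times, yet its limma adjusted p with the block was only 0.0278 and 0.0316. Without the block its probe set 1460692_at was not called (limma adjusted p = 0.0719). The absence of calls at the smaller differences of the members therefore says little about them. At an unadjusted p under 0.05 in the blocked limma fit, 4 of 12 were higher, against 6.44% of all tested probe sets, and 0 were lower, against 7.24%. Without the block 2 of 12, Ermap and Kel, had such a p, against 5.87% in either direction.

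By direction alone, 5 of 12 member probe sets were higher in all 3 pairs, against 17.3% of all tested probe sets, and 1 of 12 was lower in all 3, against 20.6%. A positive mean difference was seen at 9 of 12, against 48.3%. Since 4 of the 12 read the single gene Cd47, the probe sets are not independent of each other. With each gene represented by its brightest tested probe set, the median difference of the 9 genes was 0.27, and that of all 9025 tested genes was −0.0063. The middle gene of the 9 was Aqp1, whose pairs differed by 0.70, 0.67 and −0.54, so this median rests on an unsteady value. The genes were chosen with earlier results of these arrays known, so these counts are a description.

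**Figure D1:**
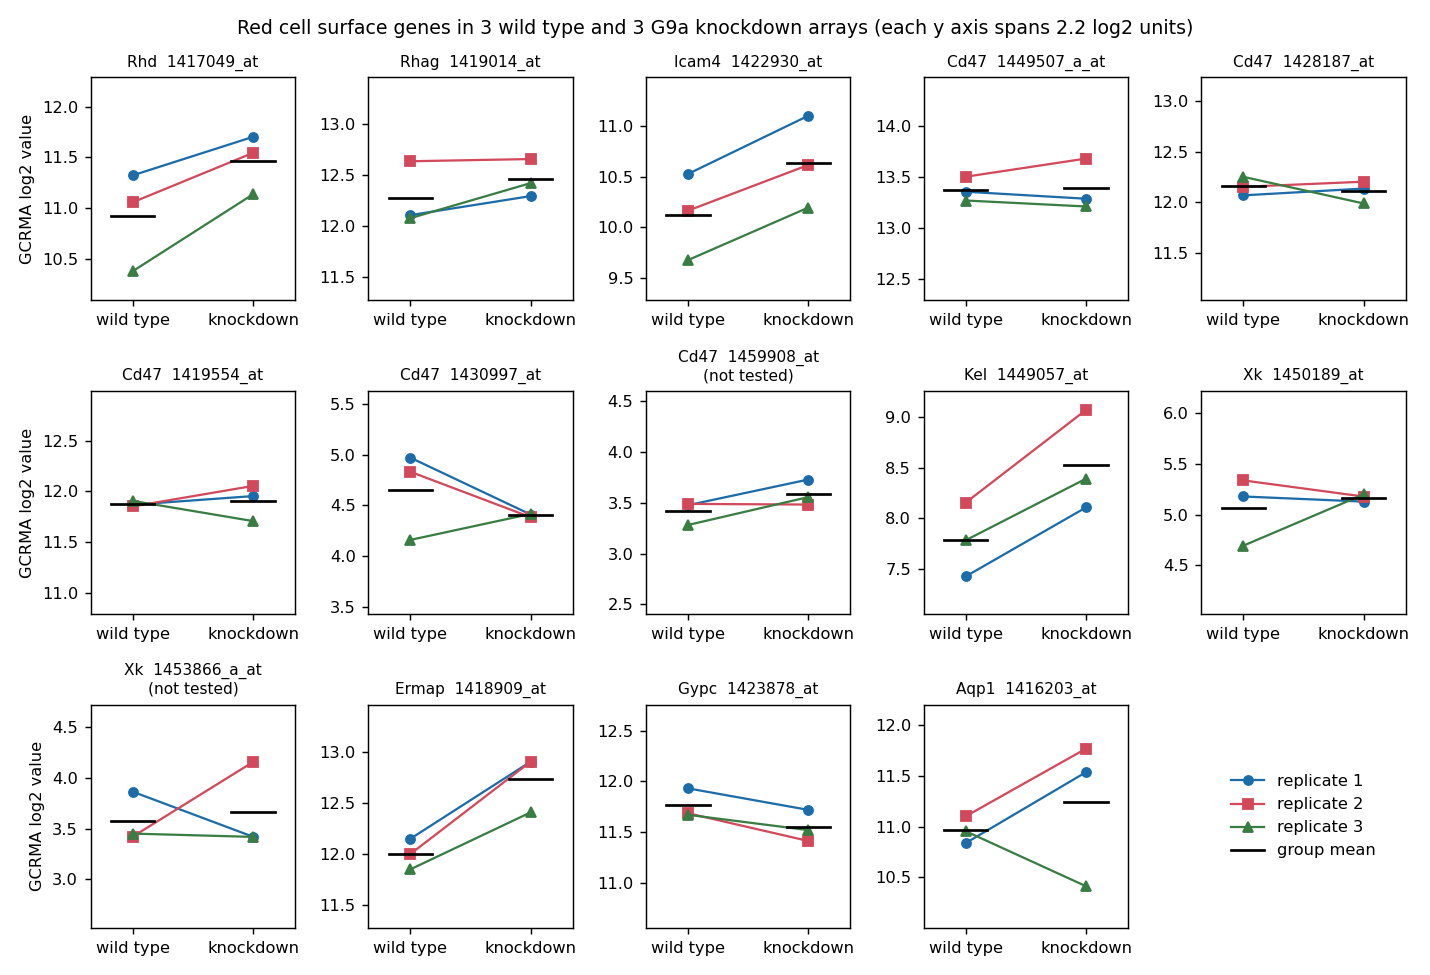
GCRMA log2 values (y axis, each panel spanning the same range) of the 14 member probe sets in wild type and knockdown arrays, with same-numbered arrays joined and group means as black bars. The lines of Ermap, Kel, Rhd and Icam4 run upward in parallel, those of Gypc run downward, and the replicate 3 line of Aqp1 runs against the other two.

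The 5 genes that were higher in all 3 pairs are shown by the 250 bases before their annotated start. They were picked for that upward direction, and the windows of Cd47, Xk and Aqp1 were searched but are not printed. Sequences are from the RefSeq promoter table (GRCm38.p6), each 5′ to 3′ on the gene's strand. The table held 9 starts for 8 of the 9 genes, and Gypc was not matched. Capitals mark a GATA site (the letters GATA with A or T before them and A or G after them, on either strand), the core recognised by the erythroid factor GATA1, or a CACCC-type box (CCNCNCCC, on either strand), the kind of element bound by Kruppel-like factors.
Ermap, chr4:119189996-119190245, minus strand: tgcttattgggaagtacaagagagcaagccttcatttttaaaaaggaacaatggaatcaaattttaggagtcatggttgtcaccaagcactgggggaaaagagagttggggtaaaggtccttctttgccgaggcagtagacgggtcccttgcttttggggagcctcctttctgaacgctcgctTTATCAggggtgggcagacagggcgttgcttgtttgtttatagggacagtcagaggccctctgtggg
Rhd, chr4:134864286-134864535, plus strand: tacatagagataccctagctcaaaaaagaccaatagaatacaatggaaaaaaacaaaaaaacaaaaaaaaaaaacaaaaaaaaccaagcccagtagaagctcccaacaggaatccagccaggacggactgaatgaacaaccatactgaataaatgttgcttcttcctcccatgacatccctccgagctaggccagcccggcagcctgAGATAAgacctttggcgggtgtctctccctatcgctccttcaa
Icam4, chr9:21029182-21029431, plus strand: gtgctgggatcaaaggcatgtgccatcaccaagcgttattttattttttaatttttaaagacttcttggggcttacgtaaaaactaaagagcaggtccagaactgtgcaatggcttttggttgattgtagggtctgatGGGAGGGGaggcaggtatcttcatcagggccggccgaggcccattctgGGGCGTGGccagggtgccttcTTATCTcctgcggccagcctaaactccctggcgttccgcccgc
Kel, chr6:41704326-41704575, minus strand: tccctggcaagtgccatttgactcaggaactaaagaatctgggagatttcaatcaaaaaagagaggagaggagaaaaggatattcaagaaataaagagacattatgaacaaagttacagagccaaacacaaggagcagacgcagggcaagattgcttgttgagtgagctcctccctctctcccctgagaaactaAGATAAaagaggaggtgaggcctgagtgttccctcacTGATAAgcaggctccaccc
Rhag, chr17:40810899-40811148, plus strand: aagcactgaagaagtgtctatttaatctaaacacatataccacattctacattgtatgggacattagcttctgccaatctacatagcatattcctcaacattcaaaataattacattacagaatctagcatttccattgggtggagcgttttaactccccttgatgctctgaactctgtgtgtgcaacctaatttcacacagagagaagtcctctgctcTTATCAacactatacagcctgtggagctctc

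Each of these promoters holds at least 1 GATA site, and each site lies close to the annotated start. The Ermap site spans positions −67 to −62 on the other strand, counted back from the base before the start as −1. In Rhd and Icam4 the site occupies the same place, −43 to −38, on the gene strand of Rhd and on the other strand of Icam4. Kel has a pair of sites, at −56 to −51 and −19 to −14, and Rhag has 1 at −31 to −26 on the other strand. Icam4 also has 2 CACCC-type boxes, at −112 to −105 and −64 to −57. No letters of a GATA site are in the same window of Cd47, Xk or Aqp1, and no TAL1-type E-box (CAGATG or CAGCTG, on either strand) is in the window of any of the 8 genes.

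The 5 members with a GATA site were thus the same 5 genes that were higher in all 3 pairs in GCRMA, an overlap noticed after the values were seen. The match was not exact in MAS5, a second summary of the same arrays described below. There Xk, which has no site, was also higher in all 3 pairs. Rhag counted as higher in all 3 with a replicate 2 difference of only 0.022 in GCRMA and 0.028 in MAS5, and Gypc had no promoter entry. Across all 32851 starts in the table, 26.5% hold a GATA site in these 250 bases, 45.9% a CACCC-type box and 25.5% a TAL1-type E-box. Among tested genes with a promoter entry, 19.1% of the 1474 with a GATA site were higher in all 3 pairs, and 18.5% of the 6003 without one. Across the array the shares with and without a site were thus nearly equal.

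**Figure D2:**
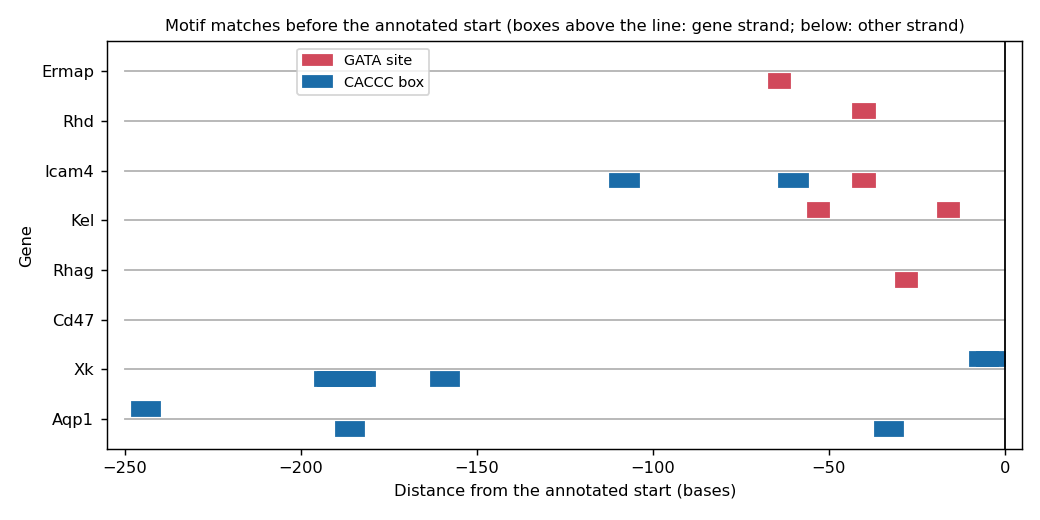
Motif matches in the 250 bases before the annotated start (x axis, distance in bases) of 8 member genes, with matches on the gene strand above each line and on the other strand below it. Red boxes, GATA sites, are present in Ermap, Rhd, Icam4, Kel and Rhag between position −67 and the start, and blue boxes, CACCC-type motifs, in Icam4, Xk and Aqp1 (overlapping matches in Xk merge). For Cd47 the first of its 2 starts is drawn, with no match.

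Rhd, the mouse Rh polypeptide gene, had values of 11.32, 11.06 and 10.38 in wild type arrays 1 to 3 and 11.70, 11.54 and 11.14 in knockdown arrays 1 to 3. Replicate 1 was the highest and replicate 3 the lowest array in both groups, and the groups overlapped. The pair differences were 0.38, 0.49 and 0.76, with a mean of 0.54 (95% interval 0.25 to 0.83 with the block, limma adjusted p = 0.209). Without the block the interval was −0.12 to 1.20 (limma adjusted p = 0.852). The spread between arrays of 1 group, an SD of 0.49 in wild type, was thus nearly as large as the difference, while the SD of the pair differences was 0.19.

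Rhag encodes RhAG, the glycoprotein without which Rh proteins do not reach the surface. Its wild type arrays read 12.11, 12.64 and 12.08 and its knockdown arrays 12.29, 12.66 and 12.42. Replicate 2 was the highest array in each group, and all 3 knockdown arrays lay above the 2 lower wild type arrays. The pairs differed by 0.19, 0.022 and 0.35, a mean of 0.18 whose interval includes 0 (−0.088 to 0.46, limma adjusted p = 0.498). Its partner Rhd, with an interval that overlaps this one, had a larger mean difference, and the difference between the genes was not tested.

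Icam4 encodes the LW blood group glycoprotein, an adhesion molecule that binds integrins. Its wild type values were 10.53, 10.16 and 9.68, and its knockdown values 11.10, 10.61 and 10.19. As for Rhd, replicate 1 was highest and replicate 3 lowest in both groups, so that the groups overlapped although every knockdown array exceeded its partner. The pair differences of 0.57, 0.45 and 0.52 were nearly equal (SD 0.062), and the mean of 0.51 had an interval of 0.27 to 0.75 with the block (limma adjusted p = 0.184). Without the block it ran from −0.20 to 1.23 (limma adjusted p = 0.858).

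Cd47 encodes the widely expressed receptor that signals through SIRPα to restrain phagocytosis, and it was the flattest member. Its brightest probe set, 1449507_a_at, gave 13.36, 13.50 and 13.27 in wild type arrays and 13.29, 13.68 and 13.21 in knockdown arrays, and the mean difference was 0.017 (interval −0.25 to 0.28). Probe sets 1428187_at and 1419554_at read 12.16 ± 0.091 and 11.88 ± 0.028 in wild type (SD, n = 3) and differed by −0.048 (−0.33 to 0.24) and 0.029 (−0.27 to 0.32). The upper ends of these 3 intervals, 0.24 to 0.32, lay below the mean differences of Ermap, Kel, Rhd and Icam4. The intervals of Rhd and Icam4 began at 0.25 and 0.27 and overlapped those of 1449507_a_at and 1419554_at. Differences between genes were not tested. The dim probe set 1430997_at gave 4.97, 4.83 and 4.16 in wild type arrays and 4.41, 4.38 and 4.42 in knockdown arrays, close to the filter, and differed by −0.25 (−0.71 to 0.21) with replicate 3 opposed to the other pairs. The fifth Cd47 probe set, 1459908_at, lay under the filter at 3.28 to 3.49 in wild type arrays and 3.48 to 3.73 in knockdown arrays (exact permutation test, two-sided, p = 0.20, where 3 against 3 arrays cannot give less than 0.10).

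Kel encodes the Kell endopeptidase. Values were 7.43, 8.15 and 7.78 in wild type arrays and 8.11, 9.07 and 8.39 in knockdown arrays. In both groups replicate 2 was the highest array and replicate 1 the lowest, and knockdown 1 lay below wild type 2, so the groups overlapped. The pairs differed by 0.68, 0.91 and 0.61, and the mean of 0.73, or 1.66 times, had an interval of 0.46 to 1.00 with the block (limma adjusted p = 0.169) and of 0.029 to 1.44 without it (0.838).

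Xk, whose protein is the partner of Kell, was dim in these cells. Probe set 1450189_at gave 5.18, 5.34 and 4.69 in wild type arrays and 5.13, 5.18 and 5.20 in knockdown arrays. Its pair differences of −0.050, −0.16 and 0.50 had no common sign, and the mean of 0.098 (interval −0.29 to 0.49) rested on replicate 3, without which it was −0.10. Probe set 1453866_a_at ranged from 3.42 to 3.86 in wild type arrays and from 3.42 to 4.16 in knockdown arrays and was not part of the fit (exact permutation test, two-sided, p = 1.0).

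Ermap encodes the Scianna blood group protein and was the one member whose groups did not overlap, which held for 5.04% of all tested probe sets in the higher direction (0 of 12 members did so in the lower direction, against 7.33% of all). Wild type arrays read 12.15, 12.00 and 11.85, and knockdown arrays read 12.91, 12.91 and 12.41. The lowest knockdown array, replicate 3, still lay above the highest wild type array, replicate 1. The pair differences were 0.76, 0.91 and 0.56, with a mean of 0.74, or 1.67 times (interval 0.46 to 1.02 with the block, limma adjusted p = 0.169). Without the block the interval, 0.33 to 1.16, also lay above 0 (limma adjusted p = 0.645).

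Gypc encodes glycophorin C, which carries the Gerbich blood group in humans and fastens the membrane to the skeleton. It was the one member below wild type in every pair: 11.93, 11.69 and 11.67 in wild type against 11.72, 11.41 and 11.52 in the knockdown. Knockdown 1 read above wild type 2 and 3, so the groups overlapped. The pairs differed by −0.21, −0.27 and −0.15, a mean of −0.21 with an interval that just includes 0 (−0.45 to 0.026, limma adjusted p = 0.404).

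Aqp1 encodes the aquaporin-1 water channel, the carrier of the Colton blood group in humans. Wild type arrays were close together at 10.84, 11.10 and 10.95, whereas knockdown arrays read 11.54, 11.77 and 10.41. Knockdown replicates 1 and 2 lay above every wild type array and knockdown replicate 3 below every one, which gave the widest interval of the members, −0.40 to 0.94 about a mean of 0.27 (limma adjusted p = 0.69). Without the replicate 3 pair the mean was 0.68, and without the replicate 1 or the replicate 2 pair it was 0.062 or 0.078, so its size depended on which pairs were used.

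**Figure D3:**
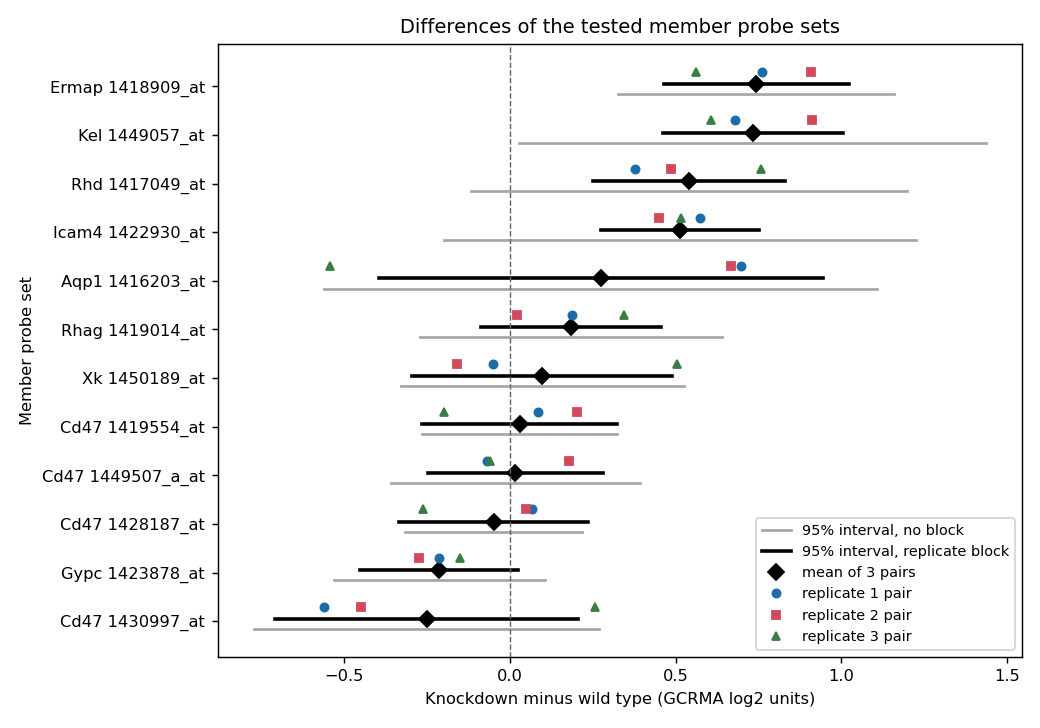
Knockdown minus wild type (x axis, GCRMA log2 units) of the 12 tested member probe sets, with the 3 replicate pairs as coloured points, their mean as a diamond, and 95% intervals with the replicate block (black) and without it (grey). Blocked intervals of Ermap, Kel, Rhd and Icam4 lie above 0, and without the block those of Rhd and Icam4 cross it.

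The arrays did not rank the same way in every member. Rhd and Icam4 had the same order of arrays in both groups, Kel had another order that was also the same in both, and in Ermap replicate 3 was lowest in both. The gene most like each member over the 6 arrays was taken as the one with the smallest root mean square difference of mean-centred log2 values, among 9016 other genes. For Icam4 it was Slc40a1, the iron exporter ferroportin (0.11 log2 units, against 0.44 for Icam4's own spread about its mean). For Kel it was the phospholipid transporter gene Abcb4 (0.11 against 0.51), for Ermap the kinase gene Csnk1e (0.10 against 0.42) and for Rhd Rflnb (0.087 against 0.43). For Rhag it was Hoxa5 (0.062), for Gypc the autophagy gene Atg13 (0.028), for Aqp1 Itpka (0.14), for Xk the cyclin gene Ccne1 (0.041) and for Cd47 R3hdm1 (0.037). With 6 arrays and 9016 genes, close profiles are easily found, and no nearest gene was shared between members.

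The MAS5 columns, a second summary of the same 6 arrays, gave the same sign at 11 of the 12 probe sets. On the log2(intensity + 1) scale Ermap differed by 0.62, Kel by 0.61, Rhd by 0.46 and Icam4 by 0.38, each smaller than in GCRMA. Ermap intensities were 8689, 7014 and 6512 in wild type and 12870, 12418 and 9065 in the knockdown, again without overlap, as for 6.64% of all tested probe sets in the higher direction (lower, 0 of 12 against 6.04%). Cd47 at 1428187_at had the opposite sign, at 0.096. In MAS5, 6 of 12 member probe sets were higher in all 3 pairs (the 5 of GCRMA and Xk at 1450189_at), against 18.1% of all, and Gypc alone was lower in all 3, against 17.2%. None was called in MAS5 with the block (0 of 12, against 0% of all, smallest limma adjusted p = 0.419). The knockdown target Ehmt2, at −2.71 and −2.46 in MAS5, was not called there either (limma adjusted p = 0.419 and 0.295). The absence of calls in MAS5 therefore says little about the members. Both summaries share the arrays, so MAS5 is no independent repeat.

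**Figure D4:**
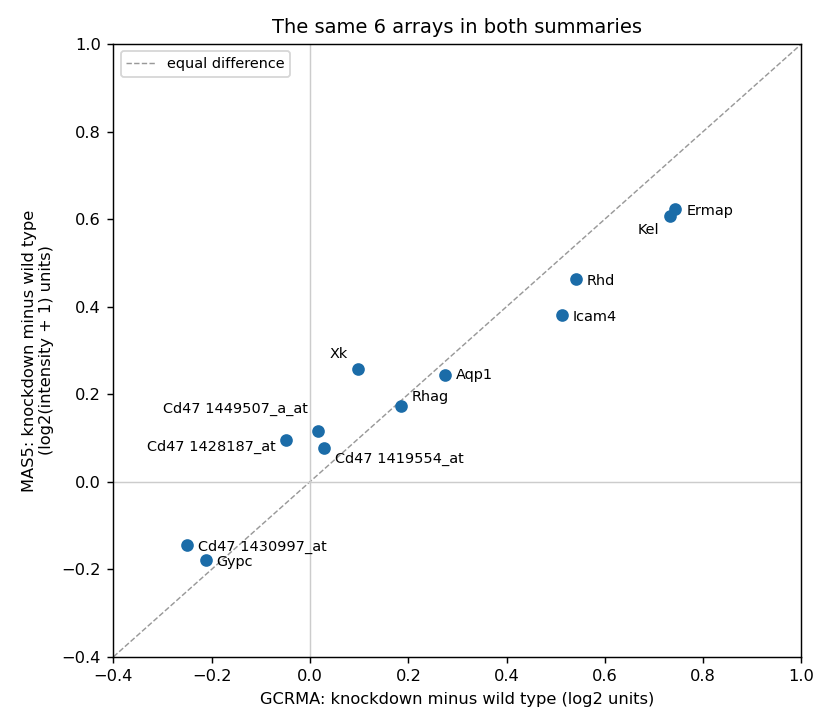
Knockdown minus wild type of the 12 tested member probe sets in GCRMA (x axis, log2 units) and MAS5 (y axis, log2(intensity + 1) units), each point the mean of 3 pairs. Ermap, Kel, Rhd and Icam4 lie at the upper right under the dashed line of equal differences, and Gypc lies below 0 in both.

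Other carriers of blood groups and red cell surface proteins did not share one direction. Of 34 listed genes 21 were measured above the filter, 12 with a positive difference (48.9% of all tested genes had one) and 9 with a negative one, and 0 were called with the block. Their median was 0.047, 4 were higher and 3 lower in all 3 pairs, and over all tested genes these were 18.7% and 21.7%. The complement inhibitor gene Cd59a differed by 0.48 (limma adjusted p = 0.228 with the block), Smim1, which carries the Vel blood group in humans, by 0.53 (0.235), and the nucleoside transporter gene Slc29a1 by 0.55 (0.325). In MAS5 Cd59a differed by 0.21 and Smim1 by 0.30, and each was higher in 2 of the 3 pairs. Acetylcholinesterase, encoded by Ache and carrier of the Cartwright blood group, differed by −0.48 (limma adjusted p = 0.281), and Tspo2, an erythroid membrane protein gene, by −0.33 (0.338).

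Of 10 membrane skeleton genes to which the members are anchored, 8 were measured, 7 with a positive difference, and 0 were called. Over all tested genes 48.9% had a positive difference. The median of the 8 genes was 0.26. Of the 8, 6 were higher and 1 was lower in all 3 pairs, against 18.7% and 21.7% of all tested genes. Dmtn, the dematin gene, differed by 0.68 (limma adjusted p = 0.169 with the block), Add2 by 0.90 (0.294) and Add1 by 0.28 (0.412). Their dimmer probe sets gave 0.39 and 0.13 for Dmtn, 0.19 to 0.68 for Add2, and 0.14 and 0.25 for Add1. Of these, 1445439_at of Dmtn, 1435287_at and 1451914_a_at of Add2 and 1420953_at of Add1 were higher in only 2 of the 3 pairs. Tmod1 differed by 0.26 (0.358), with a MAS5 difference of −0.0080. Mpp1, which encodes p55, a binding partner of glycophorin C, was the exception at −0.33 (limma adjusted p = 0.286), lower in all 3 pairs as Gypc was.

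Markers of other blood lineages were mostly under the filter. Of 8 myeloid markers on the array 2 were above it, with Mpo, Elane and Lyz2 under it, and Prtn3 averaged 4.52 in wild type arrays and 5.72 in knockdown arrays, higher in all 3 pairs. Of 7 megakaryocyte markers 2 were above it, with Itga2b at 11.86 and 11.15, lower in all 3 pairs. The mean level of the 2 myeloid markers was 5.35 to 5.79 in wild type and 5.72 to 6.32 in the knockdown arrays, and that of the 2 megakaryocyte markers 9.98 to 10.24 and 9.03 to 10.06. None of 8 lymphoid or 7 mast cell and basophil markers and 1 of 9 fibroblast and endothelial markers was above the filter. The 9 erythroid markers above the filter had a median difference of 0.028, with 5 positive (48.9% of all tested genes were) and 4 negative. Of these markers 3 were higher and 1 lower in all 3 pairs, against 18.7% and 21.7% of all tested genes. Klf1, the gene of an erythroid Kruppel-like factor, had the largest difference at 0.40 (interval 0.15 to 0.65 with the block, limma adjusted p = 0.241), higher in all 3 pairs. Hbb-b2 was the lowest at −0.30 (limma adjusted p = 0.559). Tfrc, at −0.23 (limma adjusted p = 0.404), was lower in all 3 pairs, with a MAS5 difference of −0.019. The part of these markers in the differences of the surface genes was not tested.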

How the data were processed

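RNA of 6 MEL cell arrays (3 wild type, 3 G9a knockdown) was deposited in 12 columns. Per the labels, the authors summarised each hybridization by MAS5, as intensity on a linear scale, and by GCRMA, as log2 values. The sources used here give no software version, setting or genome build. The 2% trimmed mean of each deposited MAS5 column was 500, so each array had been scaled to that level. As both summaries come from the same arrays, n is 3 a group in either.

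Gene names came from the platform annotation, which names 1 gene for 34958 probe sets, several for 932 and none for 9211. By gene identifier 99.4% of the 34958 matched a RefSeq table, with 0 symbols changed. After removing 64 control probe sets, those above log2 4 in at least 3 of 6 arrays were fitted with limma 3.58.1 in R 4.3.3 (group and replicate number as terms, Benjamini-Hochberg over all 17028). MAS5 was fitted as log2(value + 1) on the same probe sets. The fit was tested on simulated data.

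The replicate block was set by the rule that chose the member genes, and the pairing was also checked. Deviations from group means correlated at 0.72, 0.57 and 0.37 between same-numbered arrays, and at −0.59 to 0.17 between others. Deviations cancel within each group, so positive values for same-numbered arrays push those between others down, and the contrast is partly built in. Since no label explains the numbers, the only sign of a pairing comes from the data. The genes, the lists and the rule for named genes (every member probe set, the 5 genes of each list with the lowest p, Ehmt2, and the nearest gene of each member) were chosen with earlier results of these data known. The lineage markers named in the text were not covered by that rule. Alternatives changed the block, summary, pseudocount, filter, scaling, array weights and arrays used.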

Additional observations from a re-analysis of the deposited data

How the results depend on the processing

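With 3 arrays a group, 0 of the member probe sets were called in limma under any of the 17 alternative fits (8 changes of processing and 9 fits with arrays left out), and Rhd, Rhag, Icam4, Kel, Ermap, Gypc, Aqp1 and Cd47 at 1430997_at kept their sign in every one that tested them. The lowest limma adjusted p of any member was 0.093, for Ermap and for Kel. The number of probe sets called over the array was 2 with the replicate block and 1 with no replicate block. Each of these read Ehmt2. The number was 8 with the filter at log2 6 and 4 with array weights, each more than the probe sets annotated to Ehmt2 alone. It was 0 with no filter or in MAS5 with a pseudocount of 1 or 16. With arrays left out it was 0 to 1. Differences near 0 changed sign: Cd47 at 1428187_at was 0.096 in MAS5 with either pseudocount and ranged from −0.11 to 0.059 with arrays left out, Cd47 at 1449507_a_at from −0.13 to 0.11, Cd47 at 1419554_at from −0.057 to 0.14, and Xk at 1450189_at from −0.10 to 0.23. The cause was not tested. With arrays left out Ermap ranged from 0.66 to 0.91, Kel from 0.46 to 0.94, Rhd from 0.27 to 0.74, Icam4 from 0.28 to 0.73 and Aqp1 from 0.010 to 0.69. The number of member probe sets higher in all 3 pairs was 5 with equal array medians, quantile normalization, the filter at log2 6 or no filter, and 6 in MAS5. Xk at 1453866_a_at and Cd47 at 1459908_at were at or under the filter, which limits what they can show.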
